A study of Bos taurus with 6 samples.

Results

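A set of 10 genes of the Notch pathway was examined in F7, an embryonic stem cell line from cattle (a bESC line). They were chosen by name as the receptors NOTCH1, NOTCH2 and NOTCH3, the ligands DLL1, DLL3, JAG1 and JAG2, and the target genes HES1, HES5 and HEY1, and all 10 were found among the 19163 genes of the deposited count table. The study compared F7 cells grown on mouse embryonic fibroblasts (MEFs) treated with mitomycin C, which stops the feeder cells from dividing but leaves them alive (MC-F7), with F7 cells grown on MEFs that were killed by fixation in methanol (MT-F7). The question behind the comparison was how a fixed feeder layer changes the state of the cells. RNA was sequenced from 3 libraries of each group.

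F7 came from an in vitro fertilised Holstein Friesian embryo, and both groups had been cultured for 15 passages. Both were grown in a customised mTeSR1 base with fibroblast growth factor and the WNT inhibitor IWR1, and both were dissociated and kept for 25 min on a gelatin-coated dish before the floating cells were collected. The medium was changed every day in MC-F7 and every other day in MT-F7, so feeder type and feeding interval cannot be told apart. All 6 libraries came from this 1 line. The statistics section of the study speaks of technical replicates. No source used here says that the libraries of one group are separate cultures, and if they are not, the p-values measure technical spread only.

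Notch signalling passes between neighbouring cells. A ligand of the Delta or Jagged family on one cell binds a Notch receptor on the next, the receptor is cut by an ADAM protease and then by gamma-secretase, and its intracellular part enters the nucleus, where it joins RBPJ and a Mastermind coactivator and switches on repressor genes of the HES and HEY families. In the early embryo the pathway is best known for its part in neural progenitors, in the segmentation of the mesoderm and in blood vessels. RNA levels report on the genes of the pathway and not on cleaved receptor, which was not measured here.

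The total count of a library was 21958386 to 24933430. Levels are given as counts per 1000000 (CPM) after TMM normalisation, and log2 fold changes are MT-F7 minus MC-F7, so that genes higher in MT-F7 have positive values. Of the markers of pluripotent cells, 8 of 12 were tested. POU5F1 fell from 1196 ± 330 to 522 ± 35.6 CPM and NANOG from 43.5 ± 9.03 to 10.7 ± 1.23 CPM (SD, n = 3). CDH1, EPCAM, LIN28A and DPPA4 also fell. DPPA4 had counts of 37, 45 and 32 in MC-F7 and of 4, 5 and 4 in MT-F7. It passed the filter on low counts only through MC-F7, where it was high, so its call is not separate support. SALL4, at 37.3 ± 7.94 and 47.0 ± 12.1 CPM, and PRDM14 did not pass the test described below. SOX2 was matched in neither the deposited counts nor the deposited TPM values, so its level is not known here. In all, 6 of the 8 tested genes, DPPA4 among them, were lower in MT-F7 and none was higher. Of all tested genes, 11.3% were lower and 11.9% were higher. The summed level of the 8 genes was 1378 to 2170 CPM in MC-F7 and 735 to 832 CPM in MT-F7. The tested markers of the labelled cell type were therefore present in every library, 6 of them at lower levels in MT-F7. In bulk RNA, fewer cells of a type and less RNA per cell cannot be told apart, and this holds for every level below.

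Of the 10 genes, 5 changed between the groups. NOTCH1, NOTCH3, DLL1 and JAG1 were higher in MT-F7, and DLL3 was lower. NOTCH2, JAG2 and HES1 did not pass the test, and HES5 and HEY1 had too few counts to be tested. Thus 5 of the 8 tested genes had an adjusted p under 0.05 in edgeR's quasi-likelihood test with Benjamini-Hochberg adjustment, 4 higher and 1 lower in MT-F7, against 23.2% of all 13001 tested genes, 11.9% higher and 11.3% lower. In 7 of the 8, the 3 values of one group lay wholly above the 3 of the other, which was so in 40.0% of all tested genes. Their median log2 fold change was 0.68, and over all tested genes it was -0.0026. DLL3 passed the filter on low counts only through the MC-F7 libraries, where it was high, so its part in the counts of this paragraph is not separate support. With at least 10 counts in every library DLL3 was not tested. In that fit 4 of 7 members were called, 4 higher and 0 lower, beside 2712 of 11970 genes. Without MC-F7 replicate 1, without MC-F7 replicate 2 or without MT-F7 replicate 2, the number of calls was 3 in place of 5. With a limit of 1.5 on the size of the log2 change and an unadjusted p under 0.05, NOTCH3, DLL1 and DLL3 passed, 3 of the 8, against 6.58% of all tested genes.

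**Figure D1:**
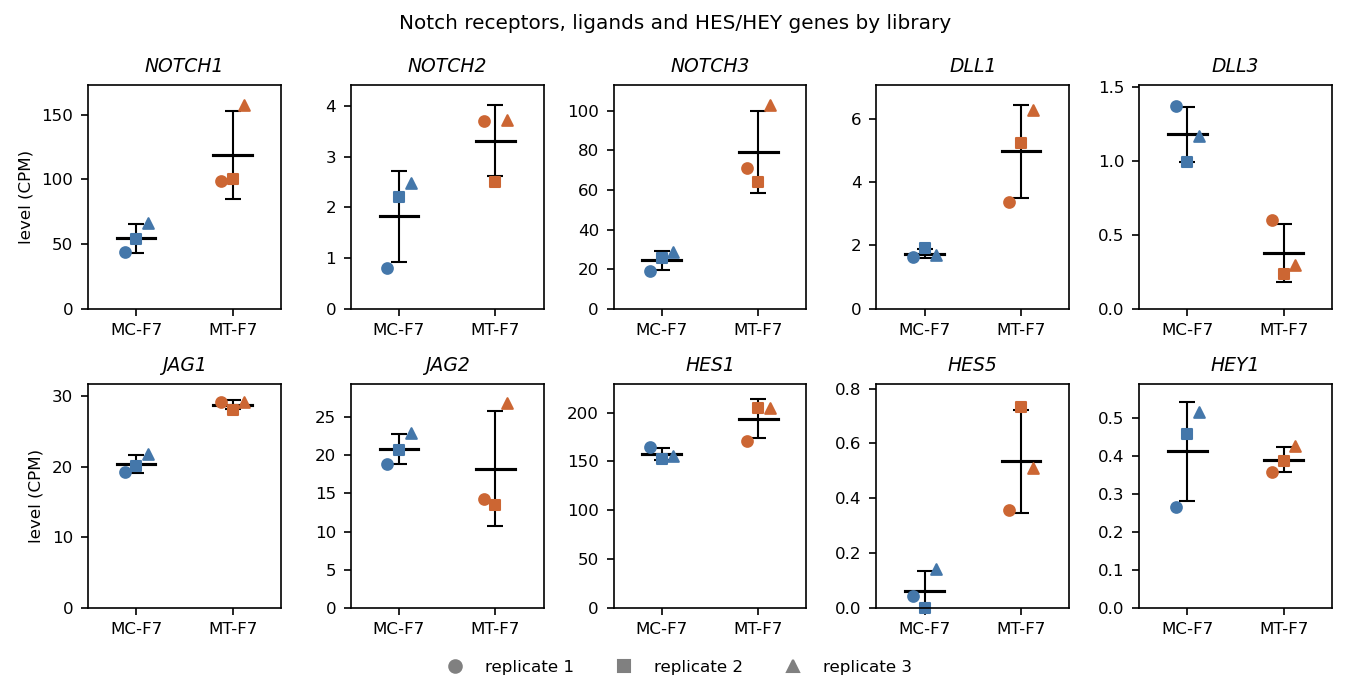
Level (CPM, linear axes from 0) of each of the 10 Notch genes in every library of MC-F7 (blue) and MT-F7 (orange). Symbols mark the replicate, horizontal bars the mean and whiskers the SD (n = 3). NOTCH1, NOTCH3, DLL1 and JAG1 were higher in every MT-F7 library than in any MC-F7 library, DLL3 was lower in every one, and JAG2 and HEY1 overlapped.

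For each of the 3 receptors, every MT-F7 library was above every MC-F7 library. NOTCH1 (Entrez 767866), which encodes a receptor needed for early development, was at 43.7, 53.5 and 65.9 CPM in MC-F7 and at 98.4, 100.3 and 158 CPM in MT-F7. In MT-F7, replicate 3 stood above the other MT-F7 libraries. The log2 fold change was 1.13 with a standard error (SE) of 0.212, a 2.19-fold higher level in MT-F7, and the adjusted p in edgeR was 0.00212.

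NOTCH3 (Entrez 789485), which encodes a receptor best known from the smooth muscle cells of vessels, was at 19.0, 25.7 and 28.5 CPM in MC-F7 and at 71.2, 63.8 and 103 CPM in MT-F7. It showed the largest rise among the 8 tested genes, and again MT-F7 replicate 3 was the highest library. It rose by a log2 fold change of 1.70 (SE 0.211), a 3.25-fold higher level in MT-F7, with an adjusted p in edgeR of 1.09e-04. Of all tested genes, 97.4% had a lower log2 fold change than NOTCH3 and 93.8% a lower one than NOTCH1. Of the smooth muscle or pericyte list, 4 of the 7 tested genes were higher and 1 was lower in MT-F7. Of all tested genes, 11.9% were higher and 11.3% were lower. The summed level of the list was 352 to 496 CPM in MC-F7 and 681 to 873 CPM in MT-F7. ACTA2, TAGLN, DES and PDGFRB rose and CNN1 fell. MYH11, at 3.53 ± 0.705 CPM in MC-F7 and 2.91 ± 0.300 CPM in MT-F7 (SD, n = 3), did not pass the test, nor did CSPG4. The pericyte marker RGS5 had 1 count in 1 library and 0 in the others. The part of smooth muscle or pericyte cells in the level of NOTCH3 was not tested.

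NOTCH2 (Entrez 513730), a receptor with broad expression, had 18 to 93 counts per library. It was at 0.796, 2.20 and 2.48 CPM in MC-F7 and at 3.71, 2.51 and 3.74 CPM in MT-F7. The highest MC-F7 library was just below the lowest MT-F7 library. The log2 fold change of 0.86 (SE 0.381) had an adjusted p of 0.124 in edgeR, and without MC-F7 replicate 1, the lowest library, it was 0.50 with an adjusted p of 0.286.

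The ligands did not move together. DLL1 (Entrez 788775), which encodes a Delta-type ligand that activates receptors on neighbouring cells, was at 1.64, 1.91 and 1.68 CPM in MC-F7 and at 3.39, 5.25 and 6.28 CPM in MT-F7. All MC-F7 libraries were close to each other, and all MT-F7 libraries were above them with a wider spread. This was a log2 fold change of 1.51 (SE 0.293), a 2.85-fold higher level in MT-F7, with an adjusted p in edgeR of 0.00269.

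DLL3 (Entrez 505993) encodes a divergent Delta-type protein that does not activate receptors on neighbouring cells and is known from the segmenting mesoderm. Its counts were 31, 24 and 25 in the MC-F7 libraries and 15, 6 and 7 in the MT-F7 libraries, or 1.37, 0.995 and 1.17 CPM against 0.598, 0.232 and 0.297 CPM. The groups did not overlap, and MT-F7 replicate 1 was the closest to MC-F7. The log2 fold change was -1.63 (SE 0.481), a 3.11-fold higher level in MC-F7, with an adjusted p in edgeR of 0.0262. The call was lost in 4 of the 6 fits that left out 1 library, with adjusted p values up to 0.108 without MT-F7 replicate 2, and the log2 fold change stayed between -2.14 and -1.38. DLL1 and DLL3 thus moved in opposite directions on the CPM scale.

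JAG1 (Entrez 783681), which encodes a Jagged-type ligand, was at 19.2, 20.1 and 21.7 CPM in MC-F7 and at 29.1, 28.04 and 29.2 CPM in MT-F7. All MT-F7 libraries were close to each other and above all MC-F7 libraries. The rise was small, with a log2 fold change of 0.50 (SE 0.149) and an adjusted p in edgeR of 0.0287. The call was lost in 4 of the 6 fits that left out 1 library, where the log2 fold change was 0.46 to 0.54 and the highest adjusted p, without MC-F7 replicate 2, was 0.121.

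JAG2 (Entrez 517405), the other Jagged-type ligand, was at 18.9, 20.7 and 22.9 CPM in MC-F7 and at 14.3, 13.4 and 26.9 CPM in MT-F7. In MT-F7, replicates 1 and 2 were below all MC-F7 libraries and replicate 3 was above them all. The log2 fold change was -0.20 (SE 0.242) with an adjusted p of 0.604 in edgeR. This value rested on MT-F7 replicate 3, since without it the log2 fold change was -0.60 and the adjusted p was 0.0252. Mitochondrial genes held 27.9% of the counts in MT-F7 replicate 3 and 28.3% in MC-F7 replicate 3, the highest shares of the 6 libraries. With the 13 mitochondrial genes removed, the log2 fold change of JAG2 was -0.20 with an adjusted p of 0.603 in edgeR. What sets MT-F7 replicate 3 apart in JAG2 was not tested further.

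**Figure D2:**
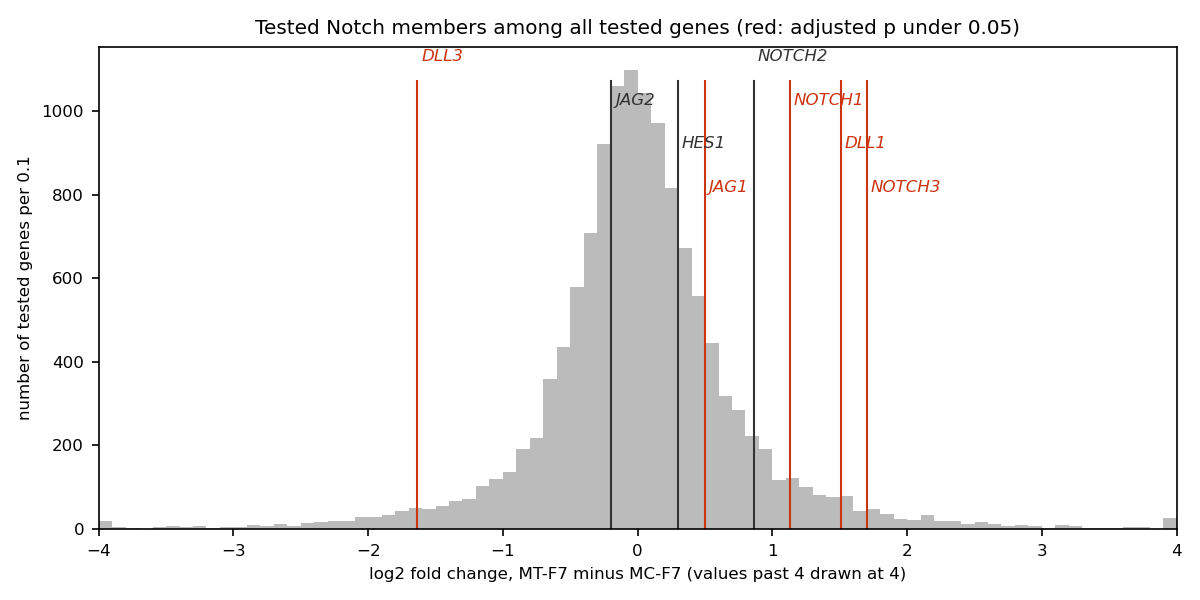
Number of tested genes (vertical axis, 13001 in all) by log2 fold change in bins of 0.1 (horizontal axis, MT-F7 minus MC-F7, values past 4 drawn at 4). Lines mark the 8 tested Notch genes, red where the adjusted p was under 0.05. NOTCH3 at 1.70 and DLL1 at 1.51 lie in the upper tail, DLL3 at -1.63 lies in the lower tail, and HES1 and JAG2 lie within the bulk of all genes.

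The target genes were counted at very different depths. HES1 (Entrez 539547), which encodes a repressor of differentiation genes, had 3317 to 5313 counts per library. It was at 165, 153 and 155 CPM in MC-F7 and at 171, 205 and 205 CPM in MT-F7, so that the groups did not overlap but MT-F7 replicate 1 lay close to MC-F7. The log2 fold change of 0.30 (SE 0.146) had an adjusted p of 0.162 in edgeR, and it passed the threshold in none of the alternative fits, in which the adjusted p was 0.0671 to 0.389. Over all tested genes the median absolute log2 fold change was 0.34, close to the size of the difference in HES1.

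HES5 (Entrez 787633), which encodes a repressor known as a marker of Notch signalling in neural progenitors, had counts of 1, 0 and 3 in the MC-F7 libraries and of 9, 19 and 12 in the MT-F7 libraries. No library of MC-F7 exceeded 3 counts, the amount taken here as the limit of detection, which is 0.116 to 0.140 CPM at these depths. The summed counts gave a ratio of MT-F7 to MC-F7 of 9.14 with an exact 95% interval of 3.30 to 35.2, which covers counting error only and not the spread between libraries. The gene did not pass the filter on low counts. Among all genes with at least 1 count its adjusted p in edgeR was 0.0291, and over the 7 alternative fits that included it, 4 of them with 1 library left out, it passed in 5, with adjusted p values of 0.0116 to 0.0768. In those 4 fits it passed the filter only through the MT-F7 libraries, where it was high. The limma fits rest on TPM values of 0 to 0.113, set against pseudocounts of 1 and 0.1. These passes are therefore not further support for the difference. The RefSeq annotation places PANK4 within 2 kb of HES5, and whether the counting used strand is not given in the sources used here. It also places an lncRNA 9 bases from NOTCH1 and a pseudogene overlapping each of NOTCH2 and JAG1. None of these is in the count table, and their part in the counts was not tested. PANK4 was at 42.7 ± 6.10 CPM in MC-F7 and 32.9 ± 7.42 CPM in MT-F7 (SD, n = 3), with an adjusted p of 0.167 in edgeR.

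HEY1 (Entrez 408005), a target gene known from vessels and somites, had counts of 6, 11 and 11 in the MC-F7 libraries and of 9, 10 and 10 in the MT-F7 libraries. The groups overlapped, and the ratio of the summed counts (MT-F7 over MC-F7) was 0.946 with an exact 95% interval of 0.543 to 1.65. This interval covers counting error only.

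Markers of cell types that use the pathway were looked at beside these genes. Of the neural progenitor and proneural list, 5 of 16 genes were tested. PAX6 rose from 2.63 ± 0.259 to 19.9 ± 0.591 CPM and FABP7 from 79.4 ± 14.7 to 142 ± 22.3 CPM (SD, n = 3), while ELAVL3, a neuronal RNA-binding protein, fell from 4.08 ± 0.852 to 0.799 ± 0.291 CPM. NES was at 312 ± 25.0 and 412 ± 51.1 CPM, and TUBB3 was at 202 ± 16.7 and 174 ± 13.2 CPM, and neither passed the test. In all, 2 of the 5 tested genes were higher and 1 was lower in MT-F7, against 11.9% and 11.3% of all tested genes. The summed level was 543 to 638 CPM in MC-F7 and 731 to 771 CPM in MT-F7. NEUROG3 and NEUROD4 had 0 counts in every library. The part of neural-type cells in the levels of DLL1 and HES5 was not tested.

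Of the presomitic mesoderm list, which includes the Notch genes DLL3, LFNG and HES7, 6 of 12 genes were tested. In MT-F7, 2 were higher and 1, DLL3 itself, was lower, against 11.9% higher and 11.3% lower of all tested genes. The summed level was 35.6 to 47.2 CPM in MC-F7 and 40.9 to 45.7 CPM in MT-F7, most of it from LFNG. LFNG was at 36.6 ± 5.55 and 33.4 ± 3.24 CPM, TBX6 at 2.61 ± 0.274 and 4.22 ± 0.675 CPM, and PAX3 and MESP2 rose. PAX3 had counts of 7, 9 and 0 in MC-F7 and of 47, 94 and 74 in MT-F7. MESP2 had counts of 12, 6 and 10 in MC-F7 and of 54, 49 and 38 in MT-F7. Both passed the filter on low counts only through MT-F7, where they were high, so their calls are not separate support. MSGN1 and RIPPLY1 had 0 counts in every library, and TBXT had 1 count in 1 library. Of the endothelial list, which includes the Notch genes NOTCH4 and DLL4, 6 of 9 genes were tested. Of these 6, 2 (TEK and KDR) were higher and 2 (FLT1 and VWF) were lower, against 11.9% and 11.3% of all tested genes. NOTCH4 and ESAM did not pass the test. The summed level was 36.9 to 38.8 CPM in MC-F7 and 41.6 to 44.2 CPM in MT-F7, of which NOTCH4 held 11.2 ± 1.69 and 14.8 ± 1.49 CPM (SD, n = 3). The defining marker PECAM1 had at most 3 counts in any library. The sums of both lists thus hold Notch genes and are not a separate measure of the cell types.

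The feeder cells are fibroblasts, and fibroblast markers were also counted. All 15 genes of that list were tested, and 5 were higher and 1 was lower in MT-F7, against 11.9% and 11.3% of all tested genes. The summed level was 336 to 402 CPM in MC-F7 and 514 to 553 CPM in MT-F7. COL5A1 and COL3A1 rose, TWIST2 fell from 1.81 ± 0.312 to 0.406 ± 0.291 CPM, COL1A1 was at 205 ± 31.4 and 268 ± 15.6 CPM, and COL1A2 was at 16.9 ± 4.53 and 17.4 ± 2.14 CPM (SD, n = 3). TWIST2 passed the filter on low counts only through MC-F7, where it was high. In all, 9 of the 15 did not pass the test. The study reported that a larger share of reads aligned to the cattle genome in MT-F7 than in MC-F7, and it proposes that fixed feeders contaminated the culture less. From higher RNA of matrix and growth factor genes in MT-F7, the study also proposes that some of these cells became feeder-like. The part of feeder cells or of feeder-like cells in the level of any Notch gene was not tested.

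Levels of different genes were compared per length, on the scale of the deposited TPM values. In MC-F7, HES1 was the highest at 19.9 ± 1.27, 14.6 times the mean of the next gene, NOTCH1, at 1.37 ± 0.242 (SD, n = 3). JAG2 followed at 1.03 ± 0.0855, and then JAG1 at 0.718 ± 0.0398 and NOTCH3 at 0.617 ± 0.120, whose ranges overlapped. DLL3 at 0.124 ± 0.0175 and DLL1 at 0.1005 ± 0.0140 overlapped as well, as did HEY1 at 0.0653 ± 0.0202 and NOTCH2 at 0.0470 ± 0.0230. HES5 was the lowest, with values of 0.00597, 0 and 0.0179.

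In MT-F7 the order was different below NOTCH1. HES1 at 26.8 ± 2.82 was followed by NOTCH1 at 3.25 ± 0.762 and NOTCH3 at 2.18 ± 0.457, 3 neighbours whose ranges did not overlap (SD, n = 3). JAG1 at 1.11 ± 0.0374 and JAG2 at 0.979 ± 0.355 overlapped, and DLL1 at 0.312 ± 0.0847 stood apart below them. NOTCH2 at 0.0932 ± 0.0170, HES5 at 0.0795 ± 0.0306, HEY1 at 0.0676 ± 0.00404 and DLL3 at 0.0432 ± 0.0229 each overlapped with the next. NOTCH3 thus ranked above both Jagged ligands in MT-F7 and below both by its mean in MC-F7, and DLL3 went from the sixth place to the last.

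**Figure D3:**
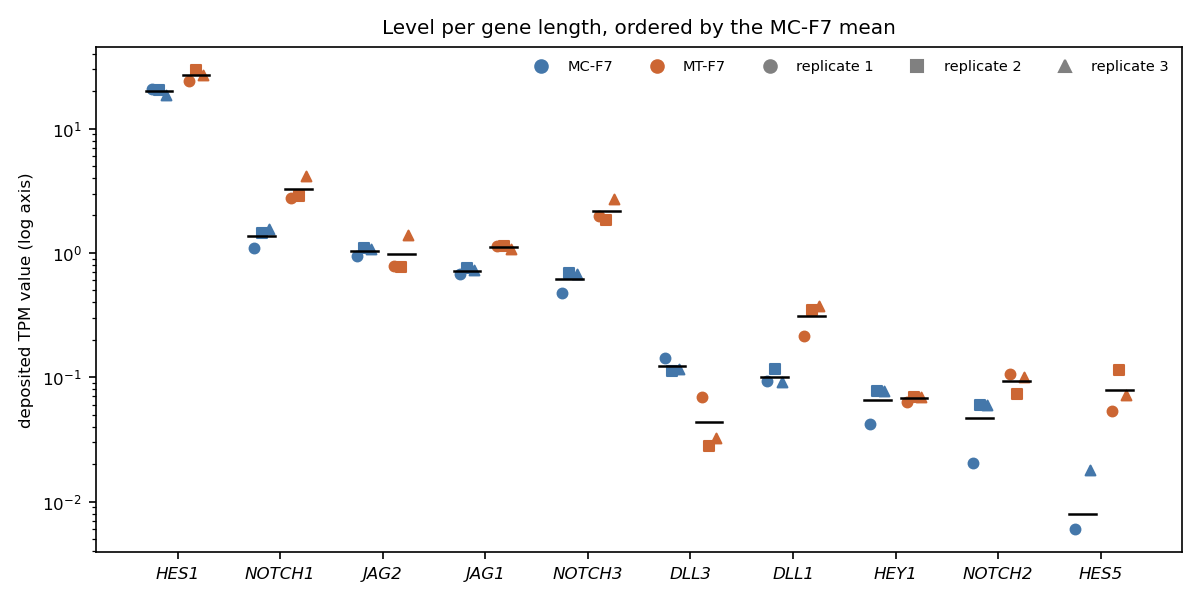
Deposited TPM value of each Notch gene (log axis) in the libraries of MC-F7 (blue) and MT-F7 (orange), with genes ordered by the MC-F7 mean. Symbols mark the replicate and bars the mean, and the MC-F7 library with HES5 at 0 is not drawn. HES1 is the highest in both groups and NOTCH3, below both JAG1 and JAG2 by its mean in MC-F7, is above both in MT-F7.

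Summed by role on this scale, the 3 receptors were at 1.60, 2.19 and 2.31 in MC-F7 and at 4.84, 4.81 and 6.93 in MT-F7, a ratio of 2.72. The 4 ligands were at 1.85, 2.08 and 2.002 in MC-F7 and at 2.21, 2.26 and 2.86 in MT-F7, a ratio of 1.24. The deposited values of a library added up to 154763 to 164394 and were higher in all MT-F7 libraries, and after rescaling to 1000000 these ratios were 2.63 and 1.19. In both sums every MT-F7 library was above every MC-F7 library. The Delta ligands alone had a ratio of 1.58 and the Jagged ligands one of 1.19, and after rescaling the groups overlapped in the Jagged sum.

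Within the receptor sum, NOTCH1 took 67.4% ± 1.61 in MC-F7 and 58.8% ± 1.85 in MT-F7, and NOTCH3 took 30.4% ± 1.12 and 39.5% ± 1.46 (SD, n = 3). NOTCH2 took 2.21% ± 0.812 and 1.72% ± 0.402, with overlapping groups. Within the ligand sum, the share of DLL1 was 5.08% ± 0.527 in MC-F7 and 12.7% ± 2.75 in MT-F7, and that of DLL3 was 6.30% ± 1.29 and 1.84% ± 1.14. JAG2 held the largest share in MC-F7 with 52.3% ± 1.51, and JAG1 the larger mean share in MT-F7 with 46.2% ± 7.77 against 39.3% ± 8.04 for JAG2.

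Ratios between members were also computed inside each library, where scaling between libraries has no effect. NOTCH1 over NOTCH3 was 2.29, 2.08 and 2.30 in the MC-F7 libraries and 1.38, 1.57 and 1.53 in the MT-F7 libraries. DLL1 over DLL3 was 0.653, 1.05 and 0.787 in the MC-F7 libraries and 3.10, 12.4 and 11.6 in the MT-F7 libraries, so that DLL1 outweighed DLL3 in every MT-F7 library. JAG1 over JAG2 was 0.722, 0.690 and 0.674 in the MC-F7 libraries and 1.45, 1.48 and 0.769 in the MT-F7 libraries, where replicate 3 came close to MC-F7. Of the 9 ratios among receptors and among ligands, 7 had groups that did not overlap. The ratios share genes, most of them called above in the same libraries, so they are not separate support for those calls. The share of such ratios over all pairs of tested genes was not computed. With 3 libraries a group, 0.1 is the smallest p of an exact two-sided permutation test; these 7 had that value, and after Benjamini-Hochberg adjustment over the 9 ratios it was 0.129.

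**Figure D4:**
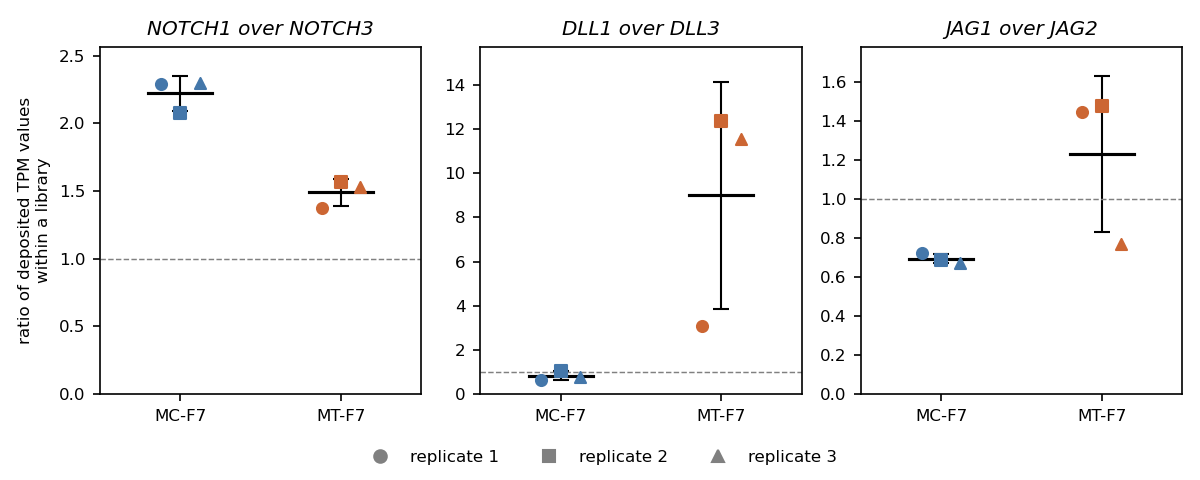
Ratio of the deposited TPM values of 2 Notch genes within a library (linear axes from 0) for NOTCH1 over NOTCH3, DLL1 over DLL3 and JAG1 over JAG2. Symbols mark the replicate, horizontal bars the mean, whiskers the SD (n = 3) and the dashed line a ratio of 1. NOTCH1 stays above NOTCH3 in every library, while DLL1 over DLL3 goes from 0.653 to 1.05 in MC-F7 to 3.10 to 12.4 in MT-F7.

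The other genes of the pathway were taken from a list of 75 genes ordered by role, of which 70 were in the count table and 59 were tested. In MT-F7, 10 of the 59 were higher and 4 were lower, which is 23.7% called against the 23.2% of all tested genes, and their median log2 fold change was 0.12. MAML2, 1 of the 10, passed the filter on low counts only through MT-F7, so its call is not separate support. With at least 10 counts in every library, 13 of 57 were called, 9 higher and 4 lower. Without MC-F7 replicate 2 the number called was 6, and without MT-F7 replicate 1 it was 8.

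NOTCH4, the fourth receptor, was at 11.2 ± 1.69 CPM in MC-F7 and 14.8 ± 1.49 CPM in MT-F7 (SD, n = 3), with a log2 fold change of 0.40 and an adjusted p of 0.129 in edgeR. DLL4, the remaining Delta-type ligand and one known from vessels, had counts of 2, 5 and 9 in the MC-F7 libraries and of 11, 0 and 13 in the MT-F7 libraries. Among the noncanonical ligands, 3 of 5 tested genes were called, against 23.2% of all tested genes. DLK1, a Delta-like protein that has been described as an inhibitor of Notch, was at 442, 359 and 353 CPM in MC-F7 and at 1933, 1880 and 2073 CPM in MT-F7. The groups were far apart, and its log2 fold change was 2.35 (SE 0.172) with an adjusted p in edgeR of 1.92e-06. MFAP2, a microfibril protein that can bind Notch ligands and receptors, rose from 137 ± 25.0 to 260 ± 52.8 CPM, and EGFL7, a secreted protein of vessels, fell from 15.1 ± 2.06 to 9.53 ± 2.70 CPM. The call of EGFL7 (adjusted p 0.0423 in edgeR) was lost in 4 of the 6 fits that left out 1 library and in the 3 limma fits.

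Of the enzymes that place sugars on the receptors, 1 of 8 tested was called, against 23.2% of all tested genes. XXYLT1, a xylosyltransferase, rose by 0.64 on the log2 scale, and this call was lost in 4 of the 6 fits that left out 1 library, with adjusted p values up to 0.0975, and in 2 limma fits. POFUT1, the O-fucosyltransferase of Notch, had a log2 fold change of 0.85 with an adjusted p of 0.0603 in edgeR, and LFNG, the Fringe enzyme of segmentation, one of -0.13. Of the proteases, 1 of 8 was called, against the same 23.2%. This was NCSTN, a subunit of gamma-secretase, which rose from 53.8 ± 7.79 to 81.6 ± 7.99 CPM (SD, n = 3), a call lost in 3 of the 6 fits that left out 1 library, with adjusted p values up to 0.0931. ADAM10, which makes the first cut in the activated receptor, had a log2 fold change of 0.47 and an adjusted p of 0.0574, and ADAM17 one of 0.19 and 0.554.

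Both Mind bomb ubiquitin ligases, which drive the endocytosis of ligands in the sending cell, were higher in MT-F7. MIB1 rose from 11.4 ± 0.898 to 17.96 ± 3.08 CPM and MIB2 from 54.4 ± 12.4 to 94.4 ± 28.1 CPM (SD, n = 3), and their adjusted p values in edgeR were 0.0188 and 0.0185. Each of these calls was lost in 3 of the 6 fits that left out 1 library, and that of MIB1 also with limma on log2(TPM + 1). NEURL1, named after its values had been seen, had a log2 fold change of -0.43 with an adjusted p of 0.420 in edgeR. Thus 2 of the 3 tested genes of this role were called, against 23.2% of all tested genes. Of 11 tested genes for receptor inhibition and turnover, 1 was called, against the same 23.2%. NEDD4, a ubiquitin ligase, rose from 0.968 ± 0.419 to 3.52 ± 0.388 CPM, while NUMB, an inhibitor of Notch, had a log2 fold change of -0.01 and an adjusted p of 0.986. NRARP, a target gene that dampens the pathway, was matched in the TPM table only, where it was at 0.924, 1.21 and 0.317 in MC-F7 and at 0.607, 0.712 and 0.317 in MT-F7, so that the groups overlapped.

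In the nucleus, RBPJ, the DNA-binding partner of the cleaved receptor, moved opposite to the receptors. It was at 7.61, 9.04 and 9.68 CPM in MC-F7 and at 5.62, 5.64 and 4.42 CPM in MT-F7, without overlap. Its log2 fold change was -0.75 (SE 0.207) and the adjusted p in edgeR was 0.0198, and the call was lost in 3 of the 6 fits that left out 1 library, with adjusted p values up to 0.0791 without MC-F7 replicate 2, and in both limma fits that included it. Its relative RBPJL, singled out after its values had been seen, was counted 4, 10 and 8 times in the MC-F7 libraries and 0 times in every MT-F7 library, which is at least 2.66-fold lower in MT-F7 against a floor of 3 counts per library.

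The Mastermind coactivators differed from each other. MAML1 was at 36.03 ± 3.46 CPM in MC-F7 and 40.9 ± 3.01 CPM in MT-F7 (SD, n = 3), with an adjusted p of 0.418 in edgeR. MAML2 was counted 2, 1 and 0 times in the MC-F7 libraries and 19, 16 and 12 times in the MT-F7 libraries, and passed the filter on low counts through MT-F7. The ratio of its summed counts was 14.3 with an exact 95% interval of 4.61 to 71.9, which covers counting error only. Its adjusted p in edgeR was 0.00441, and because of the filter this is not further support for the difference. The acetyltransferase CREBBP, named after its values had been seen, had a log2 fold change of 0.54, a call lost in 4 of the 6 fits that left out 1 library. Of 11 tested corepressors 1 was called, against 23.2% of all tested genes. This was TLE4 of the Groucho family, which rose from 22.2 ± 3.29 to 46.7 ± 4.20 CPM.

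The HES and HEY genes outside the 3 named targets went in different directions. HEYL, a target gene described in smooth muscle and muscle progenitors, was at 18.5, 21.1 and 21.1 CPM in MC-F7 and at 5.42, 3.90 and 7.01 CPM in MT-F7. Every MT-F7 library was far below every MC-F7 library, with a log2 fold change of -1.90 (SE 0.218) and an adjusted p in edgeR of 5.41e-05. HES2 fell from 2.50 ± 0.322 to 1.17 ± 0.234 CPM (SD, n = 3), a call lost in 2 of the 6 fits that left out 1 library, and HES6 was at 3.79 ± 0.446 and 4.599 ± 0.332 CPM with an adjusted p of 0.421.

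The remaining HES and HEY genes had few counts and were not tested. HEY2, known from vessels and heart, had counts of 7, 12 and 15 in the MC-F7 libraries and of 1, 4 and 2 in the MT-F7 libraries, a ratio of MC-F7 to MT-F7 of 5.32 with an exact 95% interval of 2.32 to 14.2. HES4 was counted 5, 0 and 0 times in the MC-F7 libraries and 6, 12 and 15 times in the MT-F7 libraries, a ratio of MT-F7 to MC-F7 of 6.03 with an interval of 2.34 to 19.8. HES7, the oscillating repressor of segmentation, had counts of 0, 1 and 0 in the MC-F7 libraries and of 2, 4 and 2 in the MT-F7 libraries, nearly all at or under 3 counts, with a ratio of MT-F7 to MC-F7 of 7.31 and an interval of 0.980 to 324.

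**Figure D5:**
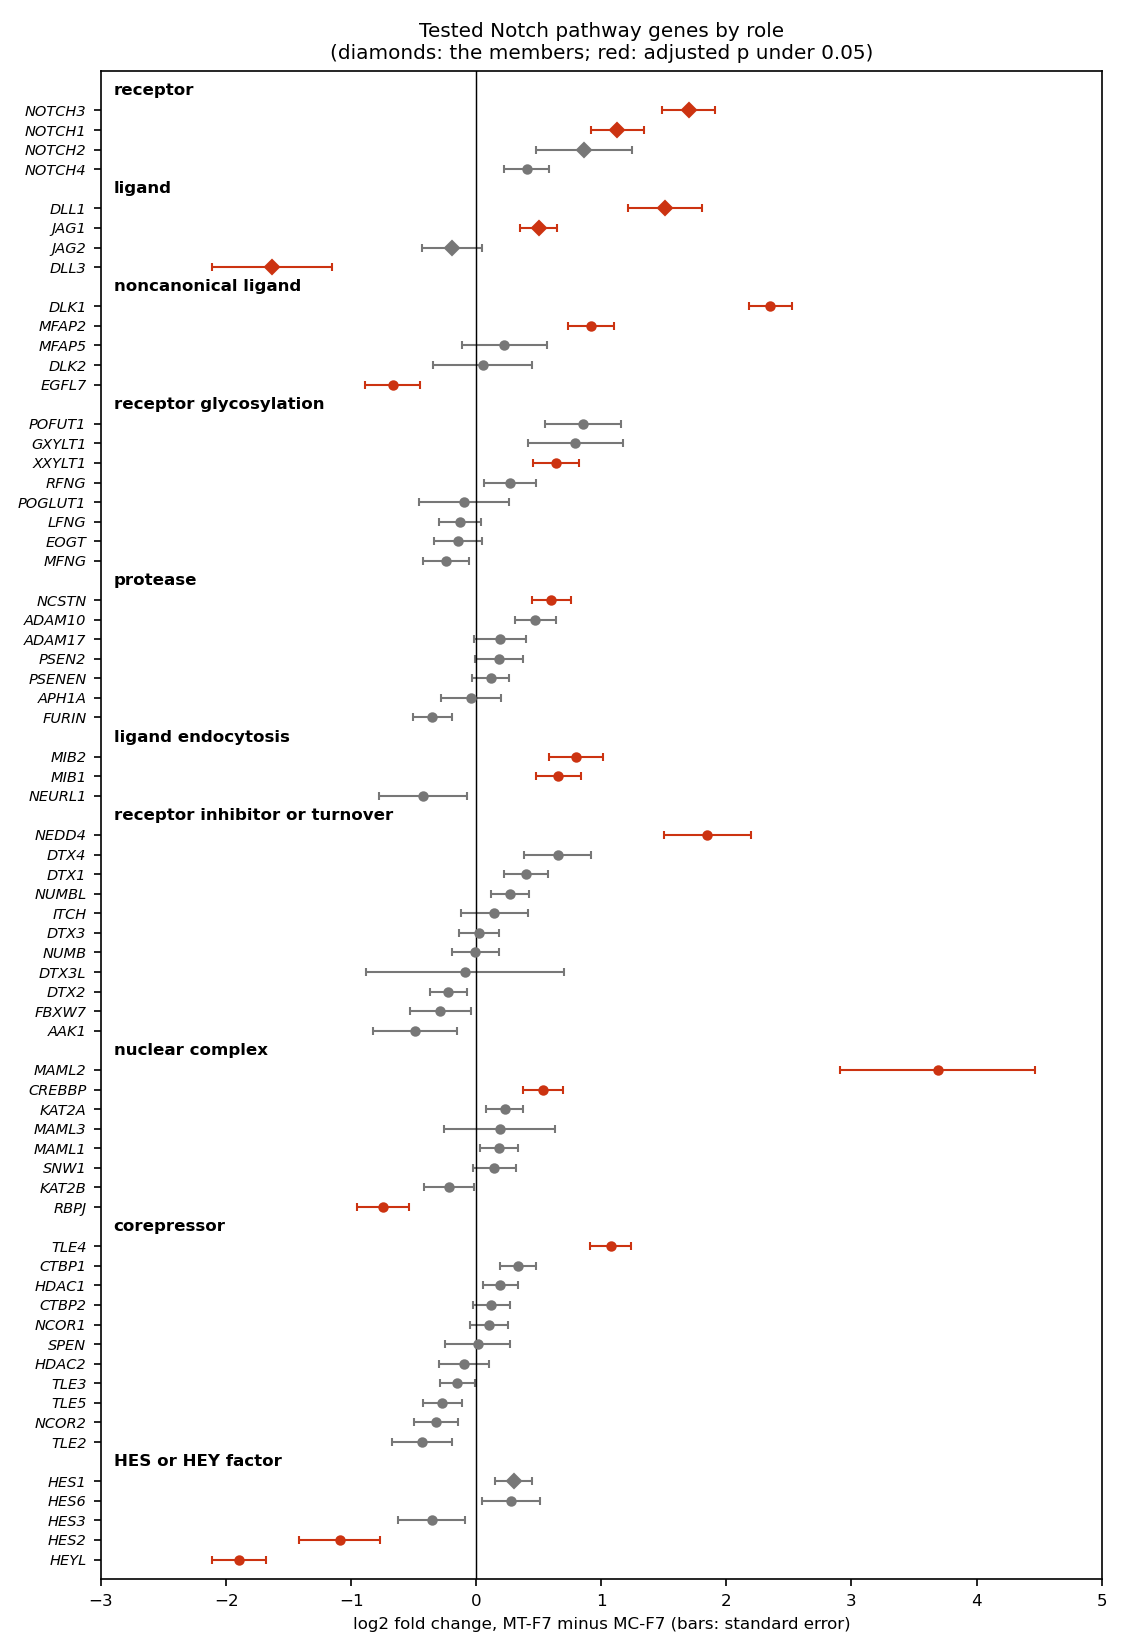
Log2 fold change (horizontal axis, MT-F7 minus MC-F7, bars are the standard error) of tested Notch pathway genes, grouped by role, with diamonds for the 8 tested members and circles for other genes of the pathway. Red marks an adjusted p under 0.05 in edgeR. All 4 receptors lie above 0, the ligands lie on both sides, and RBPJ, HES2 and HEYL are lower in MT-F7.

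For each of the 5 called genes, the tested genes with the most similar profile were found by the root mean square difference between log2 CPM values centred over the 6 libraries. These log2 CPM values hold edgeR's default added count, which shrinks the differences of genes with few counts. APC2, ABCA7 and SHANK1 were nearest to NOTCH1, with differences of 0.0691 to 0.0834 on the log2 scale. MMP17, CD101 and SRGAP3 were nearest to NOTCH3 (0.129 to 0.140), and FLRT2, KCNH2 and HOMER3 to DLL1 (0.133 to 0.169). BCL11A, TMEM81 and SERPINA12 were nearest to DLL3 (0.124 to 0.194), and POLR2A, FNIP1 and VEZF1 to JAG1 (0.0407 to 0.0493). Some of these genes had unlike log2 fold changes in the test, with 2.39 for CD101 beside 1.70 for NOTCH3 and -2.43 for SERPINA12 beside -1.63 for DLL3. None of the nearest genes is on the Notch list.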

How the data were processed

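RNA was extracted from the floating F7 cells with the PicoPure kit, libraries were made with the NEBNext Ultra kit, and paired-end reads were sequenced on an Illumina instrument. Per the submitters' processing notes the tools were HISAT2 2.0.5, featureCounts 1.5.0-p3 and edgeR. The genome build is not given in the sources used here, so no coordinates are printed. The authors deposited raw counts per Entrez gene for 6 libraries, without normalization. The authors also deposited values named TPM, whose ratio to the count was equal in all libraries within 1% for 9695 of the 9711 genes that had 50 counts or more in each library, so these values still hold library size. Symbols were matched to 19074 of 19163 genes through RefSeq (ARS-UCD2.0).

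In edgeR 4.0.16 (R 4.3.3), filterByExpr with a minimum count of 10 and a minimum total of 15 left 13001 genes. The quasi-likelihood test with TMM factors, two-sided and without a block, compared MT-F7 and MC-F7, with Benjamini-Hochberg adjustment over these genes. The threshold was an adjusted p under 0.05. Alternatives were RLE or no factors, DESeq2 1.42.0, the likelihood ratio test, other filters, a replicate block, each library left out, limma 3.58.1 on log2(TPM + 1) and log2(TPM + 0.1), a fold change rule (log2 change past 1.5 either way, unadjusted p under 0.05), and removal of the 13 mitochondrial genes, which was added after the data had been seen. Python 3.11.15 and scipy 1.17.1 gave exact intervals and permutation tests. Duplicate reads of 1 molecule are not marked in counts, so intervals and limits of detection cover counting error only. The steps were tested on simulated data.

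The genes and lists were chosen with earlier results of these data known. The 10 members, 18 other pathway genes given by name, up to 12 called pathway genes with the largest changes, the 4 markers of the highest mean CPM in each list and the 3 nearest profiles of each called member were named. Further markers were named where the text describes a call, a test that was not passed, counts near 0 or a gene that was not found. An item among the genes given by name is not reported here. Promoter motifs were not analysed here.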

Additional observations from a re-analysis of the deposited data

How the results depend on the processing

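Of 131 values of the tested Notch members under the alternatives, 121 kept their direction and their side of the threshold, 8 lost the call, 2 gained it and 0 changed sign. NOTCH1, NOTCH3 and DLL1 passed in every fit in which they were tested, and HES1 in none. Counts of called genes moved more. Over all genes, 3016 were called (1553 higher and 1463 lower in MT-F7), and leaving out 1 library gave 1914 to 3093 (1019 to 1592 higher and 895 to 1567 lower), the lowest without MC-F7 replicate 2. The same fits called 3 to 6 members (3 to 5 higher and 0 to 1 lower, where there were 5, 4 and 1) and 6 to 17 other pathway genes (5 to 10 higher and 1 to 7 lower, where there were 14, 10 and 4). With limma on log2(TPM + 1) the split over all genes was 1547 higher and 820 lower, and on log2(TPM + 0.1) it was 1581 and 845. With a mean TPM of at least 1, limma called 1399 genes (948 higher and 451 lower), 2 members (2 higher and 0 lower) and 7 other pathway genes (7 higher and 0 lower), and fewer genes were tested there. Under the fold change rule (log2 change past 1.5 either way, unadjusted p under 0.05), 856 genes passed (454 higher and 402 lower, 6.58%), with 3 members (2 higher and 1 lower) and 4 other pathway genes (3 higher and 1 lower). With at least 10 counts required in every library DLL3 was not tested, and 0 members were called lower. Near 0, LFNG turned to 0.0011 and 0.0061 with limma at pseudocounts of 1 and 0.1, and NUMB turned to 0.0037 with library size only, to between -0.16 and 0.13 with 1 library left out, and to 0.095 and 0.13 with limma. The cause of these changes was not tested.

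Libraries with the same replicate number deviated from their group means with correlations of 0.134, 0.0445 and 0.417 across genes, so the numbers were not taken to pair the samples. With a replicate block, 4674 genes were called (2373 higher and 2301 lower), NOTCH2 passed with an adjusted p of 0.0407 in edgeR so that 6 members were called, 20 other pathway genes were called (13 higher and 7 lower), and NUMB was at 0.0036.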
